A study of Homo sapiens with 21 samples.

Results

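The genes followed here build and run the DNA replication machinery. They load the MCM2-7 helicase onto origins, activate it, copy DNA at the fork and package the new strands. The 46 members were found by gene symbol in the expression table. All 46 were among the 23368 genes listed and among the 19694 whose value varied between libraries. Expression was measured by RNA-seq in hTERT-HPNE cells, a pancreatic duct-derived line immortalized with telomerase (hTERT) and not transformed. The cells were kept in medium with puromycin and given fresh medium at treatment. Treated cells received 300 μM H2O2, which causes oxidative stress, or 400 ng/ml neocarzinostatin (NCS), which breaks both DNA strands. RNA was taken after 4, 8 or 24 h, and untreated cells were harvested at 0 h, so there were 7 groups of 3 biological replicates and 21 libraries.

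No untreated cells were harvested at 4, 8 or 24 h in these libraries. In every comparison with untreated cells, the treatment therefore cannot be told apart from the time after the medium change. All libraries came from 1 cell line. The values are rLog values on a log2 scale, which the authors made from read counts. They correct for library size and shrink differences, most strongly at low counts. They are not per transcript length, so levels are compared between groups for 1 gene and never between genes. Sequencing depth is unknown, because the table holds no counts. The library medians over varying genes lay between 7.145 and 7.189. NES, VIM, CD44 and THY1, markers of these mesenchymal-like duct-derived cells, had medians of 9.25 to 17.05. TERT, the telomerase gene with which the line was immortalized, had a median of 14.04. Whether its reads came from the introduced copy was not tested. The medians of the duct markers were 11.65 (KRT18), 7.90 (KRT8), 6.93 (KRT7), 6.07 (SOX9), 3.78 (CDH1), 0.595 (KRT19) and -1.77 (EPCAM). The acinar and endocrine markers were listed at 0 in every library or lay below 0, as did CFTR. Of 3 blood and endothelium markers, HBB was listed at 0, PTPRC had a median of 0.93 and PECAM1 of 2.06. PECAM1 was called higher in H2O2 at 4 h (0.33), and its part in the results was not tested.

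Before S phase, the origin recognition complex (ORC), CDC6 and CDT1 load MCM2-7 onto DNA, a step called licensing, which geminin (GMNN) blocks through CDT1. At the start of S phase, CDC45 and the GINS complex join MCM2-7 to form the active helicase. Polymerases, the PCNA clamp and its loader then copy the DNA. In cycling cells many of these genes are switched on by E2F transcription factors as cells pass from G1 into S phase. In arrested cells RB family proteins hold E2F factors in check.

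Promoter sequence was examined because the members are a classical group of E2F targets. RefSeq windows on GRCh38.p14, from 250 bases before to 50 bases after the start site, matched 40 of the 46 members. The other 6, MCM4, MCM5, GINS4, POLD3, RPA2 and RPA3, are named only. The E2F site was searched as TTTCCCGC, TTTGGCGC, TTTCGCGC or TTTGCCGC on both strands. It was present in 19 of the 40 member windows (47.5%) and in 908 of 27305 windows of the same length over all genes (3.33%). The CHR element, a site known from mitotic genes, was searched as TTTGAA or TTTAAA on both strands. It was in 0 of 40 member windows, in 24.3% of all windows and in 16 of 19 windows of a list of mitotic genes (84.2%). The CCAAT box, letters CCAAT on both strands, was in 22 of 40 member windows (55%) and in 35.7% of all windows. The p53 motif, searched as a single copy of the decamer that p53 binds in tandem, was in 3 member windows (7.5%) and in 6.54% of all windows. Matches of different motifs could overlap, and a palindromic run such as that of MCM2 holds 2 overlapping E2F matches. A match is a run of letters and not evidence that a factor binds there.

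The windows of 6 genes are shown so that the sequences can be set beside the expression values. Capitals mark the E2F site on either strand. MCM2 and MCM6 have several overlapping matches, CDC6 and PCNA have 1 each, and ORC1 and ORC4 have none by these letters. ORC1 fell strongly at 24 h, whereas ORC4 was not called at that time after either treatment.
MCM2 promoter, chr3:127598161-127598460, plus strand: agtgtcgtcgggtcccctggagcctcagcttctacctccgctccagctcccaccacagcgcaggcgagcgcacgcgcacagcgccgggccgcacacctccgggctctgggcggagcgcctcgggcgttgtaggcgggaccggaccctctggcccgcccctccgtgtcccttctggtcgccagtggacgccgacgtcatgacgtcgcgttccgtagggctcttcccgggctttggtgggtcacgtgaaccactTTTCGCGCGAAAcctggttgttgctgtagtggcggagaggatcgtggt
MCM6 promoter, chr2:135876394-135876693, minus strand: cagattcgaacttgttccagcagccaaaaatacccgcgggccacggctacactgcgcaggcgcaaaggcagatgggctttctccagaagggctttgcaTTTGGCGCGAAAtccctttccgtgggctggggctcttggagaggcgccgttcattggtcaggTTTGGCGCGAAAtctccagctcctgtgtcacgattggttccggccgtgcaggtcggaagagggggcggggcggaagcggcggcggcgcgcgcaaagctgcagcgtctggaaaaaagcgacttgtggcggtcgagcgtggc
CDC6 promoter, chr17:40287629-40287928, plus strand: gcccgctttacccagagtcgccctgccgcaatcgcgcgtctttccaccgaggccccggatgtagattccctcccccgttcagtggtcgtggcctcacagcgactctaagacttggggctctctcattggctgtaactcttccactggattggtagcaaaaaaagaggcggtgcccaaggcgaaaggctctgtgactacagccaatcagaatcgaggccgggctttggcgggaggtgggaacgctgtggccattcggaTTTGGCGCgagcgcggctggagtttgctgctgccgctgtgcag
PCNA promoter, chr20:5126573-5126872, minus strand: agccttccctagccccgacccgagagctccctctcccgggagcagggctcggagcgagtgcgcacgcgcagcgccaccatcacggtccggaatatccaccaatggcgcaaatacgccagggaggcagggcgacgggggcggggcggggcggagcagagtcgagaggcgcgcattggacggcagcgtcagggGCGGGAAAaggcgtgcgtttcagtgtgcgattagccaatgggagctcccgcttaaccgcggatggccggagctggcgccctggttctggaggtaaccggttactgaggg
ORC1 promoter, chr1:52404374-52404673, minus strand: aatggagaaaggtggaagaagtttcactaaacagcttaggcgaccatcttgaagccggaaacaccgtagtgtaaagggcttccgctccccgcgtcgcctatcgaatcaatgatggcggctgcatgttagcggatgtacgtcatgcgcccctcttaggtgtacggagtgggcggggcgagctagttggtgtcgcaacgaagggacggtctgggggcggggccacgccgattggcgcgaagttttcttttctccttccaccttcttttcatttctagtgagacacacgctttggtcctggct
ORC4 promoter, chr2:148021502-148021801, minus strand: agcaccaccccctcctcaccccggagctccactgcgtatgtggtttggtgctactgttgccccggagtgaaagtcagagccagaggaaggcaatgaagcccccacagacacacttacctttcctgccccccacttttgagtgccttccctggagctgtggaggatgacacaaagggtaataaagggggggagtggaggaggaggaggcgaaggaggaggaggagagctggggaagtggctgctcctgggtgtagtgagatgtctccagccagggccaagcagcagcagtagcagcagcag

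**Figure D1:**
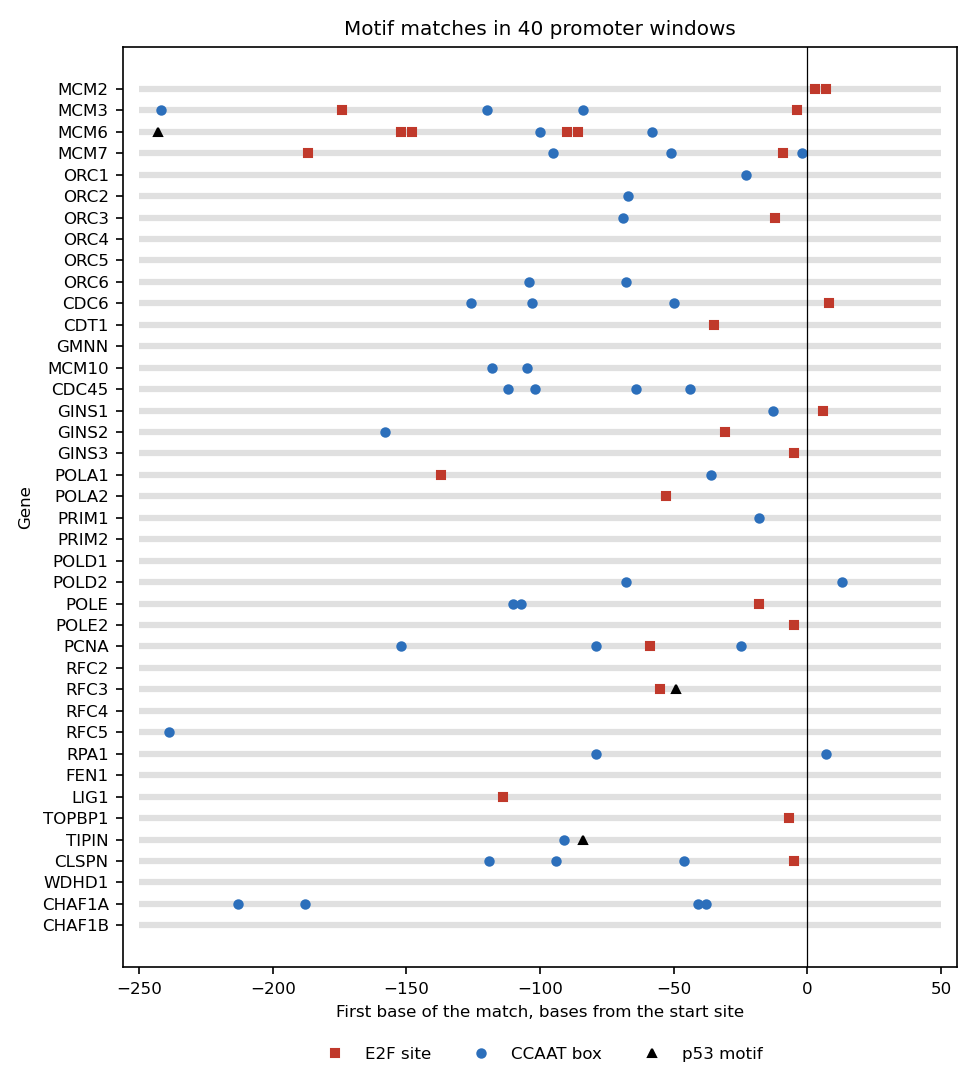
Position of motif matches in the 40 member promoter windows; the x axis gives the first base of the match in bases from the start site, and each grey line is 1 window from 250 bases before to 50 bases after it. Squares are E2F sites, circles CCAAT boxes and triangles p53 motifs; 19 of the 40 windows hold an E2F site, and 4 genes, MCM2, MCM3, MCM6 and MCM7, hold 2 or more.

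By 24 h nearly the whole group had fallen after both treatments. After H2O2, 44 of 46 members were lower than in untreated cells and 0 higher, against 19.9% and 20.2% of all genes tested. After NCS, 45 were lower and 0 higher, against 18.4% and 19.6% of all genes. Calls rest on limma, fitted to all 7 groups at once, with a Benjamini-Hochberg adjusted p under 0.05 over every gene tested. The median change of the members was -1.14 on the log2 scale after H2O2 and -1.24 after NCS, with standard errors between 0.025 and 0.086 for single members. A fall by over 1 was seen for 31 members after H2O2, against 1.29% of all genes, and for 32 after NCS, against 1.37%. The 31 members were among the 32, and the additional member was RFC2. Outside both counts were 14 members, namely ORC2 to ORC5, GINS4, PRIM2, POLD2, PCNA, RPA1 to RPA3, LIG1, TOPBP1 and TIPIN. The 2 treatments share the untreated libraries, so the counts are not independent of each other. In bulk RNA, fewer cells in S phase cannot be told apart from less of these RNAs per cell.

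The fall was reached in steps. At 4 h after H2O2, 25 members were lower and 3 higher, against 19.7% and 26.2% of all genes, and the median change was -0.14. At 4 h after NCS, 7 were lower and 4 higher, against 9.72% and 7.47%, with a median of -0.04. For NCS at 4 h the shares of members, 15.2% lower and 8.7% higher, were not far from those of all genes. At 8 h the counts were 39 lower and 1 higher after H2O2, against 18.6% and 18.8% of all genes, with a median of -0.35. After NCS at 8 h they were 37 lower and 1 higher, against 13.3% and 10.5%, with a median of -0.39. No member had changed by over 1 at 4 or 8 h. The mean over the members was 10.02 to 10.07 in the untreated libraries and 8.97 to 8.99 in H2O2 at 24 h. In NCS at 24 h it was 8.88 to 8.95, so that neither treated group at 24 h overlapped the untreated one.

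**Figure D2:**
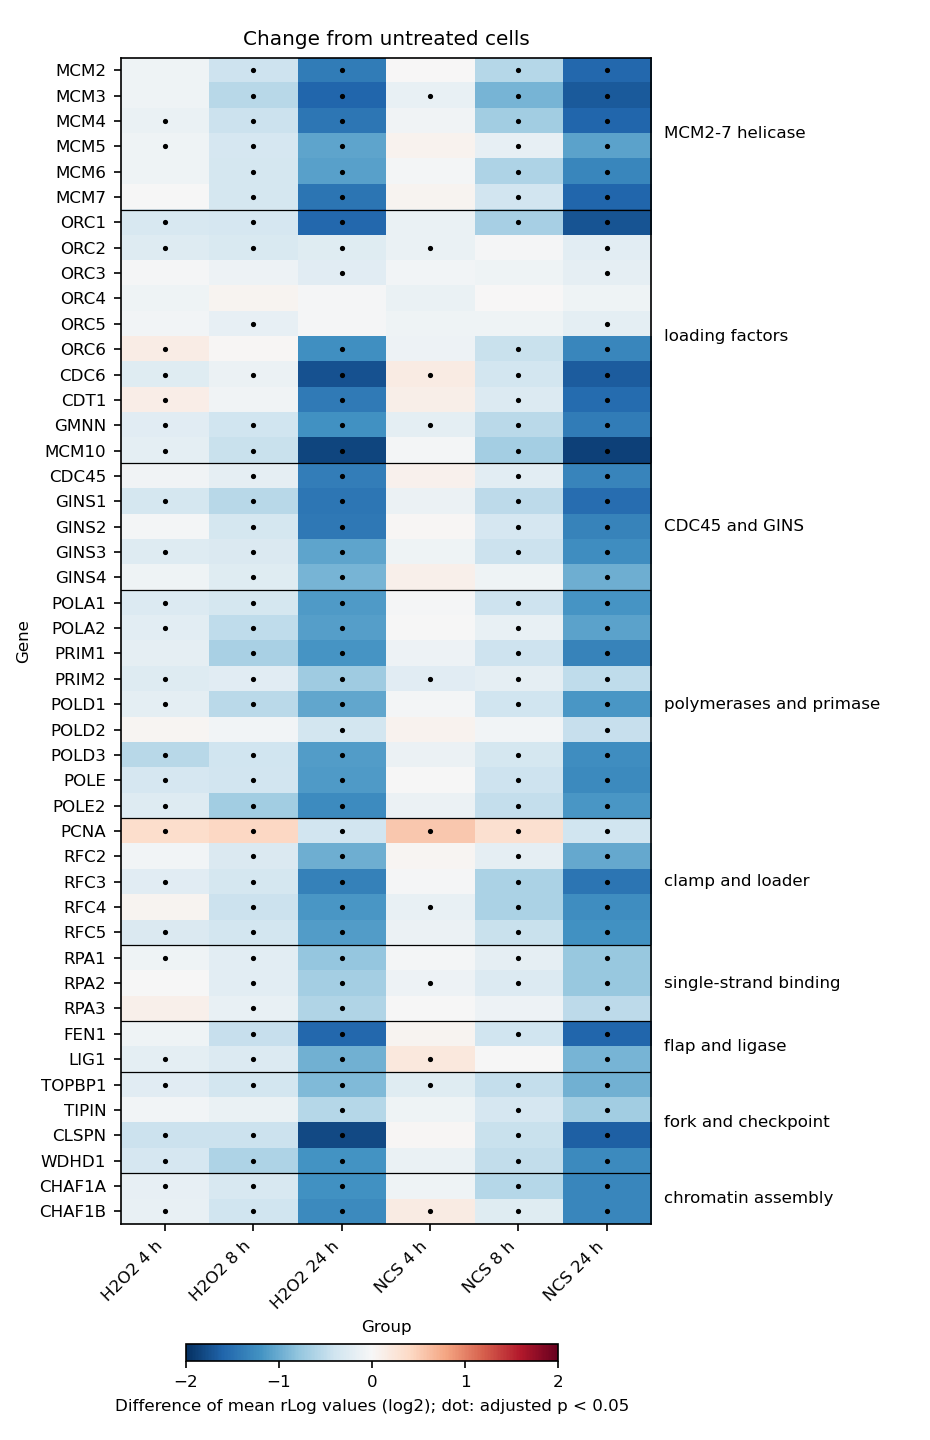
Change of the 46 members from untreated cells in each treated group, as the difference of mean rLog values on the log2 scale (blue lower, red higher), ordered by role; a dot marks a call by limma (adjusted p under 0.05). In the 24 h columns all 46 members are below untreated cells, and dots mark 44 after H2O2 and 45 after NCS; PCNA is red at 4 and 8 h, and ORC2 to ORC5 are paler at 24 h than ORC1 and ORC6.

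All 6 subunits of the MCM2-7 helicase, the ring that unwinds DNA, fell by over 1 at 24 h after both treatments. MCM3 fell most in this group. Its values were 11.34, 11.46 and 11.45 in untreated cells, 9.84, 9.82 and 9.83 in H2O2 at 24 h and 9.67, 9.72 and 9.85 in NCS at 24 h. The treated libraries lay well below the untreated ones, with log2 differences of -1.59 (SE 0.045, adjusted p = 5.60e-15, limma) and -1.67 (adjusted p = 2.17e-15). MCM5 fell least (-1.05 after H2O2 and -1.06 after NCS), and the other 4 subunits lay between -1.08 and -1.59. At 8 h after NCS, MCM3 was already at 10.42, 10.48 and 10.55, a difference of -0.94. MCM5 at that time stood at 11.55, 11.62 and 11.59 against 11.68, 11.78 and 11.79 in untreated cells, a difference of -0.16. An antisense transcript shares 30.7% of the exonic bases of MCM2 in GENCODE v29, and the strand setting of the counting is not given in the sources used here.

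The loading factors split into members that fell and members that hardly moved. MCM10, which helps to activate the loaded helicase, had the deepest fall of all 46. Its values were 9.79, 9.83 and 9.80 in untreated cells, 7.98, 8.04 and 7.91 in H2O2 at 24 h and 7.90, 7.97 and 7.94 in NCS at 24 h. The differences were -1.83 (SE 0.043, adjusted p = 5.91e-16, limma) and -1.87 (adjusted p = 3.78e-16), and the means on the linear scale were 0.281 and 0.273 of the untreated one. Pairs of differences from untreated cells at 24 h are given with H2O2 first and NCS second. CDC6 fell (-1.75 after H2O2 and -1.66 after NCS), CDT1 (-1.42 and -1.53), and GMNN (-1.22 and -1.40). The licensing factor CDT1 and its inhibitor geminin both fell.

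Within ORC, ORC1 and ORC6 fell and the other 4 subunits changed little. ORC1, whose gene is a known E2F target, had values of 9.01, 8.99 and 8.95 in untreated cells. They were 7.40, 7.36 and 7.46 in H2O2 and 7.29, 7.27 and 7.23 in NCS at 24 h, with differences of -1.57 (SE 0.049, adjusted p = 1.57e-14, limma) and -1.72 (adjusted p = 4.31e-15). ORC6 fell (-1.23 and -1.31). ORC4 was 8.85, 8.77 and 8.85 in untreated cells, 8.77, 8.76 and 8.86 in H2O2 and 8.74, 8.71 and 8.78 in NCS at 24 h. These ranges overlapped, and the differences were -0.02 (95% interval -0.11 to 0.07) and -0.08 (-0.17 to 0.01). In NCS at 4 h ORC4 was 8.71, 8.62 and 8.74, below the untreated range. That difference of -0.13 was not called (adjusted p = 0.0561, limma), but it was called in 4 alternatives: with library medians aligned (adjusted p = 0.0335), at a mean of at least 5 (0.0362), with the replicate block (0.0303) and without untreated replicate 2 (0.0409). ORC2 fell (-0.24 and -0.21) and ORC3 (-0.23 and -0.19). ORC5 had a difference of -0.03 after H2O2, which was not called, and fell by 0.20 after NCS.

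**Figure D3:**
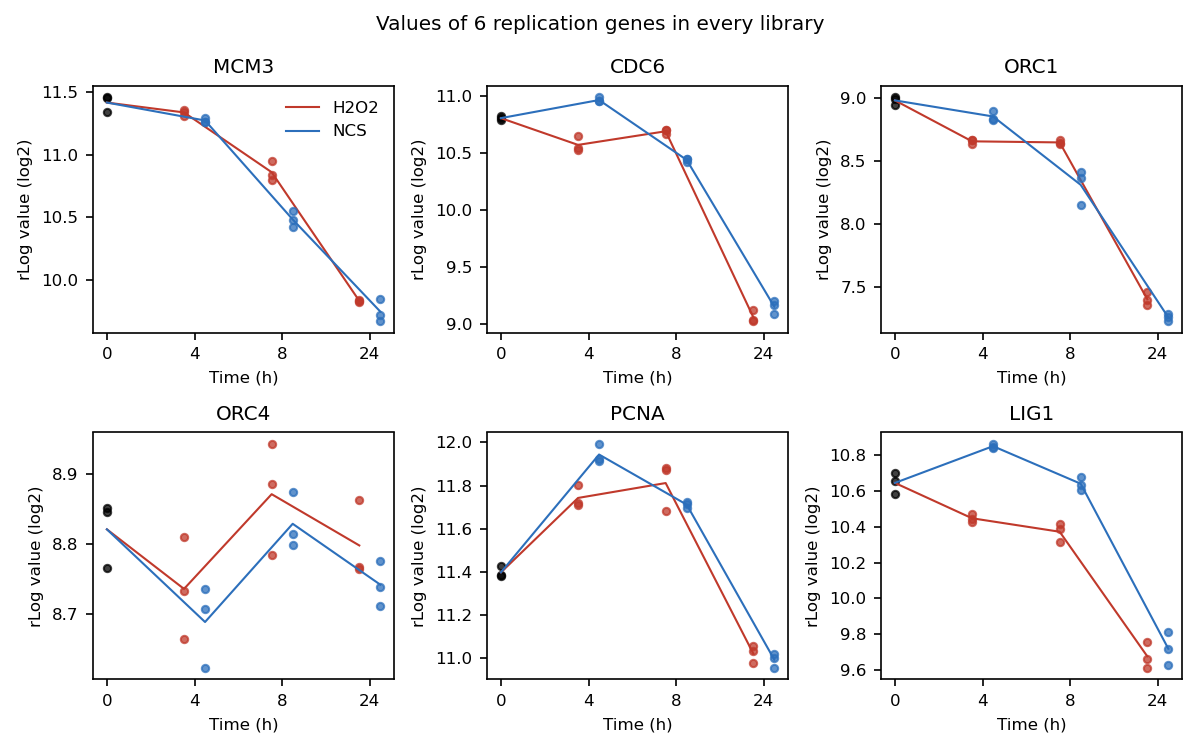
rLog values (log2) of MCM3, CDC6, ORC1, ORC4, PCNA and LIG1 in every library against time after treatment (h, evenly spaced; untreated cells at 0); points are libraries (black untreated, red H2O2, blue NCS), lines join group means, and the y axis differs between panels. ORC4 stays between 8.62 and 8.94, PCNA rises at 4 and 8 h before it falls, and CDC6 and LIG1 separate the treatments at 4 h.

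CDC45 and the GINS complex, which complete the active helicase, fell together. GINS1 fell most. It was at 9.38, 9.32 and 9.27 in untreated cells, 7.85, 7.94 and 7.85 in H2O2 at 24 h and 7.75, 7.77 and 7.91 in NCS at 24 h, with differences of -1.45 (SE 0.067) and -1.52. CDC45 fell (-1.38 and -1.32), GINS2 (-1.44 and -1.33) and GINS3 (-1.05 and -1.24). GINS4 fell least (-0.92 and -0.98). Antisense transcripts share 21.2% of the exonic bases of GINS4 and 16.5% of those of GINS3.

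All 9 polymerase and primase genes were lower at 24 h after both treatments, 7 of them by over 1. POLA1 and POLA2 encode subunits of the polymerase that starts each new strand. POLA1 fell (-1.14 and -1.19) and POLA2 (-1.09 and -1.06). PRIM1, the catalytic subunit of primase, fell (-1.19 and -1.33), while its partner PRIM2 fell (-0.71 and -0.51). Among the leading-strand polymerase epsilon genes, POLE fell (-1.14 and -1.27) and POLE2 (-1.25 and -1.16). In the lagging-strand polymerase delta, POLD1 fell (-1.04 and -1.16) and POLD3 (-1.11 and -1.25). POLD2 was 11.49, 11.58 and 11.51 in untreated cells, 11.19, 11.15 and 11.15 in H2O2 and 11.02, 11.06 and 11.10 in NCS. Its differences, -0.36 and -0.46, were the smallest of the 9, although no treated library overlapped the untreated ones. POLA2 shares 53.7% of its exonic bases with a same-strand readthrough gene, PRIM1 26.0% and POLD1 12.1% with same-strand genes, so reads of these 3 could have been split or dropped in counting.

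The clamp PCNA stood apart from the other members. It rose at 4 and 8 h and was below the untreated level at 24 h. The PCNA values were 11.38, 11.43 and 11.39 in untreated cells, 11.72, 11.71 and 11.80 in H2O2 at 4 h and 11.92, 11.92 and 11.99 in NCS at 4 h. The untreated range overlapped neither of them, and the rises were 0.34 (SE 0.042, adjusted p = 1.93e-06, limma) and 0.55 (adjusted p = 2.79e-08). At 8 h the values were 11.88, 11.68 and 11.87 after H2O2 and 11.72, 11.72 and 11.70 after NCS, rises of 0.41 and 0.31. PCNA was the member called higher at 8 h in both treatments. At 24 h it was 10.98, 11.03 and 11.06 after H2O2 and 10.96, 11.00 and 11.02 after NCS, differences of -0.38 and -0.40. PCNA, besides being an E2F target, is a known p53 target, but its window held no match to the p53 motif, which says only that these letters are not in these 300 bases. Of the clamp loader genes, RFC3 fell most at 24 h (-1.35 and -1.46). RFC4 fell (-1.17 and -1.24), RFC5 (-1.12 and -1.21) and RFC2 (-0.98 and -1.03).

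The 3 subunits of RPA, which coats single-stranded DNA in replication and in repair, fell by less than 1. RPA1 fell most. Its values were 11.75, 11.77 and 11.79 in untreated cells, 11.01, 10.95 and 11.01 in H2O2 at 24 h and 10.99, 11.03 and 11.02 in NCS at 24 h, differences of -0.78 (SE 0.028) and -0.76. RPA3 fell least (-0.60 and -0.53), and RPA2 lay between, with -0.68 and -0.76. FEN1, which trims Okazaki fragments, was at 11.30, 11.34 and 11.38 in untreated cells, 9.78, 9.80 and 9.73 in H2O2 and 9.68, 9.79 and 9.78 in NCS. The differences were -1.57 (SE 0.039) and -1.59. LIG1, which seals the fragments, fell (-0.97 and -0.92).

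CLSPN encodes claspin, which links stalled forks to the checkpoint kinase CHK1, and it had the second deepest fall after H2O2. Its values were 10.52, 10.60 and 10.51 in untreated cells, 8.74, 8.76 and 8.70 in H2O2 at 24 h and 8.91, 8.80 and 9.02 in NCS at 24 h. The differences were -1.81 (SE 0.048, adjusted p = 2.25e-15, limma) and -1.63. WDHD1, which couples the helicase to polymerase alpha, fell (-1.20 and -1.27), and TOPBP1, needed for origin firing and checkpoint signalling (-0.88 and -0.96). TIPIN, a fork protection factor, fell least of these (-0.57 and -0.69). CHAF1A and CHAF1B encode subunits of CAF-1, which deposits histones behind the fork, and CHAF1A fell (-1.22 and -1.30) and CHAF1B (-1.27 and -1.31).

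The falls at 24 h were set beside the promoter motif. The 19 members with an E2F site had a median change of -1.25 after H2O2 and -1.30 after NCS. The 21 members with a window but without the site had medians of -1.17 and -1.24. In H2O2, 15 of the 19 and 13 of the 21 had fallen by over 1, and in NCS 15 and 14. Members with and without the letters overlapped over nearly the whole range. ORC3 has a site and fell by 0.23 after H2O2, whereas MCM10 has none and had the deepest fall. The split by motif was described without a test.

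H2O2 and NCS differed in the early part of the response. At 4 h, 22 members were lower in H2O2 than in NCS and 3 higher, against 18% and 26.3% of all genes. Among them, 3 members were called in opposite directions from the untreated level, lower after H2O2 and higher after NCS, namely CDC6, LIG1 and CHAF1B. The share of all genes called in opposite directions was not computed. CDC6 was 10.83, 10.79 and 10.81 in untreated cells, 10.54, 10.53 and 10.65 in H2O2 and 10.96, 10.96 and 10.99 in NCS at 4 h. The 3 groups did not overlap. The changes from untreated cells were -0.24 (SE 0.034, adjusted p = 1.74e-05, limma) and 0.16 (adjusted p = 0.00271). LIG1 was 10.58, 10.70 and 10.65 in untreated cells, 10.47, 10.44 and 10.43 in H2O2 and 10.84, 10.86 and 10.84 in NCS. The changes were -0.20 (SE 0.043, adjusted p = 0.000944) and 0.20 (adjusted p = 0.00209), again without overlap. CHAF1B had changes of -0.15 and 0.16. Its calls were less stable than the other pairs: without untreated replicate 2, untreated replicate 3 or H2O2 4 h replicate 1, the adjusted p for H2O2 was 0.0808, 0.0674 and 0.0783. For NCS it was 0.161, 0.118 and 0.0774 without untreated replicate 1, NCS 4 h replicate 2 or NCS 4 h replicate 3. Under quantile normalization the adjusted p for H2O2 was 0.126.

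The 5 largest differences between the treatments at 4 h were all lower in H2O2. CLSPN was 10.12, 10.13 and 10.08 in H2O2 and 10.56, 10.60 and 10.54 in NCS, a difference of -0.45 (SE 0.048, adjusted p = 3.51e-07, limma). NCS at 4 h overlapped untreated cells for this gene, and H2O2 lay below both. POLD3 was 8.96, 8.96 and 8.93 in H2O2 and 9.36, 9.42 and 9.38 in NCS, a difference of -0.44 (SE 0.052, adjusted p = 1.58e-06). After H2O2 it had fallen by 0.55 from untreated cells, the deepest fall of any member at 4 h. LIG1 differed by -0.40, CDC6 by -0.39 and POLE by -0.33. The 3 members higher in H2O2 were ORC6 (0.25), RFC4 (0.21) and RPA2 (0.10). The call for RPA2 was lost without NCS 4 h replicate 3 (adjusted p = 0.0794) and with library medians aligned (0.0502). ORC6 and CDT1 were also called above untreated cells in H2O2 at 4 h, by 0.16 and 0.14. For ORC6 the adjusted p was 0.074, 0.0627 and 0.0911 without untreated replicate 2, untreated replicate 3 or H2O2 4 h replicate 2. For CDT1 it rose above the threshold without any 1 of 5 libraries: 0.242 and 0.111 without untreated replicates 1 and 3, and 0.0859, 0.082 and 0.0823 without H2O2 4 h replicates 1, 2 and 3. It was also lost without a trend in the prior (0.0547) and in a fit of only the groups compared (0.133).

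By 8 h the counts had turned, but the median difference over the members was 0.03. The member means of the libraries overlapped, at 9.687 to 9.787 in H2O2 and 9.67 to 9.718 in NCS. At this time 16 members were higher in H2O2 than in NCS and 9 lower, against 18.7% and 15.4% of all genes. The share of members lower in H2O2, 19.6%, was near that of all genes. ORC6 had the largest difference. It was 9.41, 9.43 and 9.57 in H2O2 and 8.98, 8.94 and 9.09 in NCS, which is 0.47 higher in H2O2 (SE 0.054, adjusted p = 2.17e-06, limma). Its untreated values, 9.49, 9.43 and 9.44, overlapped those of H2O2. MCM3 was 10.80, 10.95 and 10.84 in H2O2, 0.38 above NCS (SE 0.045, adjusted p = 3.50e-06). ORC1 was 0.34 higher in H2O2, with 8.63, 8.67 and 8.65 against 8.15, 8.37 and 8.42. CDC6, lower in H2O2 at 4 h, was 0.25 higher at 8 h. Of the 16 members higher in H2O2, 4 were MCM2-7 subunits and 6 loading factors. In the other direction, POLA2 was 0.35 lower in H2O2 and ORC2 0.28 lower. The count of 9 members lower in H2O2 was 5 without H2O2 8 h replicate 1 and 5 in a fit of only the groups compared. Without H2O2 8 h replicate 2 it was larger. POLD3 (adjusted p = 0.0433, limma), RFC2 (0.0246), FEN1 (0.0413) and WDHD1 (0.00584) were then also called lower. On the higher side GMNN (0.0867) and GINS3 (0.0969) were lost in that fit, and PCNA (0.0004) was gained.

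At 24 h the treatments differed little in comparison with their distance from untreated cells. In H2O2, 10 members were higher than in NCS and 2 lower, against 11% and 10.9% of all genes, and the median difference was 0.07. MCM6 was 9.58, 9.57 and 9.65 in H2O2 and 9.29, 9.41 and 9.44 in NCS, a difference of 0.22 (SE 0.039, adjusted p = 0.000404, limma). PRIM2 was 8.85, 8.82 and 8.84 in H2O2 and 9.05, 9.06 and 9.03 in NCS, a difference of -0.20 (SE 0.028, adjusted p = 2.49e-05). GMNN and GINS3 were 0.19 higher in H2O2, and CLSPN was 0.18 lower. The call for GINS3 was lost without H2O2 24 h replicate 3 (adjusted p = 0.0598) or NCS 24 h replicate 1 (0.0548). That for CLSPN was lost without H2O2 24 h replicate 3 (0.0503) or NCS 24 h replicate 3 (0.0775). When only these 2 groups were fitted, the calls for GMNN (adjusted p = 0.0547), GINS3 (0.0501) and CLSPN (0.0818) were lost, and that for GINS3 also under quantile normalization (0.0552).

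**Figure D4:**
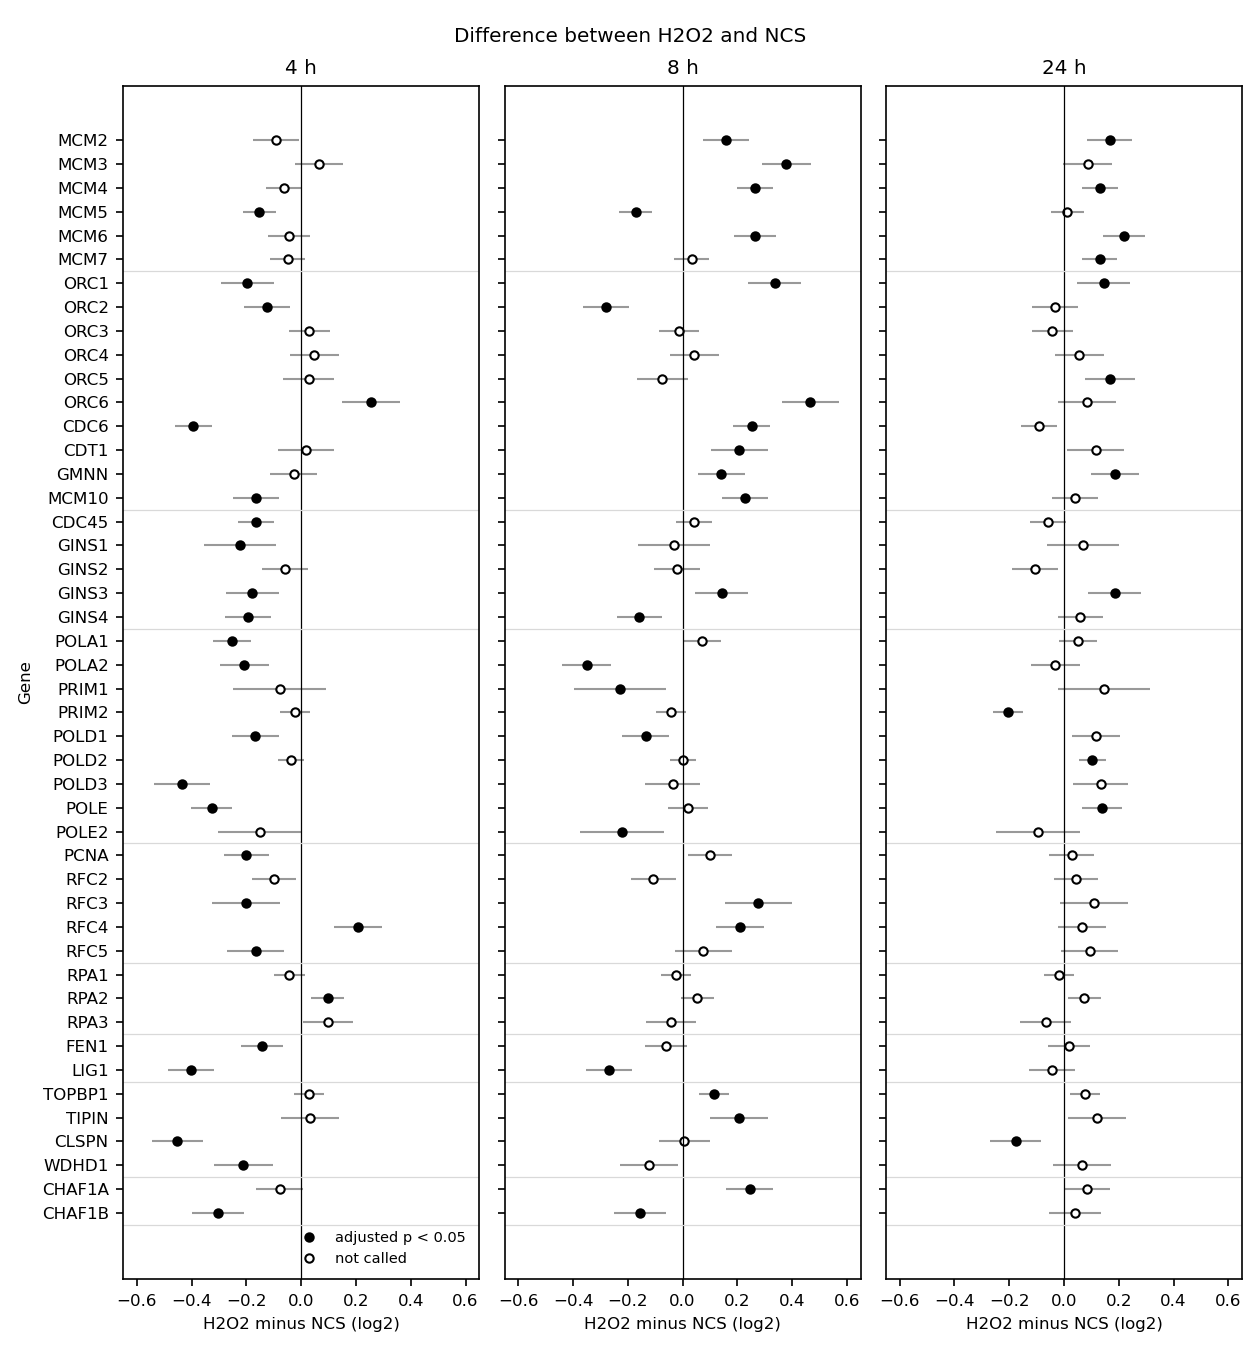
Difference between H2O2 and NCS for each of the 46 members at 4, 8 and 24 h, as H2O2 minus NCS on the log2 scale. Bars are 95% intervals from the limma standard error by a normal approximation. Filled points have an adjusted p-value under 0.05 by limma, and grey lines separate the roles. At 4 h the filled points lie mostly to the left (22 of 25), at 8 h on both sides (9 left, 16 right) and at 24 h close to 0.

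Between successive times the larger median falls came from 8 to 24 h, a longer step than that from 4 to 8 h. Falls per hour were not compared. From 4 to 8 h in H2O2, 29 members fell and 3 rose, against 27.7% and 18% of all genes. The members that rose were ORC4, CDC6 and POLD3, and without H2O2 4 h replicate 3 the count was 1. From 8 to 24 h in H2O2, 43 fell and 1, ORC5, rose, against 23.2% and 19.4%, with a median of -0.74. The count of 1 was 0 when any of H2O2 8 h replicates 1 and 3 or H2O2 24 h replicates 1 and 3 was left out, and 2 without H2O2 8 h replicate 2. From 4 to 8 h in NCS, 40 fell and 0 rose, against 7.5% and 6.16%, with a median of -0.35. From 8 to 24 h in NCS, 44 fell and 0 rose, against 15% and 14.9%, with a median of -0.84. CDC6 took its largest steps after 8 h, -1.63 in H2O2 and -1.29 in NCS. MCM3 in NCS divided its fall between both steps, with -0.79 from 4 to 8 h and -0.74 from 8 to 24 h.

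At 24 h most other genes of replication had fallen alongside the members. Of a list of 34 further replication genes, 29 were lower at 24 h after each treatment, against 19.9% and 18.4% of all genes. The medians of the list were -0.93 and -1.003. At 4 h after NCS the lists differed more. Of the 34, 14 were lower and 2 higher, and of the 46 members 7 and 4, against 9.72% and 7.47% of all genes. UHRF1, which guides maintenance of DNA methylation behind the fork, fell (-1.85 and -1.90), and the histone chaperone gene ASF1B fell (-1.84 and -1.66). FBXO5, an inhibitor of the anaphase-promoting complex, fell (-1.69 and -1.68). POLD4, a small subunit of polymerase delta, rose by 0.59 and 0.71, and ASF1A rose by 0.20 after H2O2. These last 2 were named after their values were seen. Of 11 genes of nucleotide supply, 9 were lower and 1 higher at 24 h in each treatment. Of all genes, 19.9% were lower and 20.2% higher after H2O2, and 18.4% and 19.6% after NCS. The ribonucleotide reductase subunit RRM2 fell (-1.80 and -1.75). RRM2B, its p53-induced counterpart and also named after its values were seen, rose by 0.88 and 0.84.

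A list of 16 genes held E2F factors, their partners and pocket proteins. Of these, 12 were lower after H2O2 at 24 h and 15 after NCS, against 19.9% and 18.4% of all genes. The 1 called higher was E2F7, a repressor-type E2F, after H2O2 (0.14), and it too was named after its value was seen. E2F1 fell (-1.44 and -1.45), E2F2 (-1.27 and -1.30), E2F8 (-1.37 and -1.33) and the pocket protein gene RBL1 (-1.26 and -1.34). A separate list of 8 genes for cell cycle arrest held CDKN1A and CCNE2. At 24 h, 4 of the 8 were lower and 3 higher after each treatment. Of all genes, 19.9% were lower and 20.2% higher after H2O2, and 18.4% and 19.6% after NCS. By over 1, 2 of the 8 were lower and 2 higher after H2O2, and 2 and 1 after NCS. CDKN1A, which encodes the CDK inhibitor p21, was above untreated cells at every time. The differences were 1.21, 1.62 and 1.57 after H2O2 and 1.58, 1.47 and 1.48 after NCS. CCNE2, the cyclin partner of CDK2 at the start of S phase, fell (-1.88 after each treatment at 24 h), and CDK2 (-1.17 and -1.13).

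Mitotic genes fell too, and most were already lower at 4 h. They were 20 of 22 after H2O2 and 22 after NCS, against 19.7% and 9.72% of all genes. All 22 listed were lower by over 1 at 24 h after both treatments, against 1.29% and 1.37% of all genes. Medians of the 22 mitotic genes were -1.89 and -2.13. At 4 h their medians were already -0.48 after H2O2 and -0.98 after NCS, against -0.14 and -0.04 for the members. MKI67 fell (-2.51 and -2.73) at 24 h, PLK1 (-2.31 and -2.88) and KIF20A (-2.47 and -2.87). The order of the treatments at 4 h was the reverse of that of the 46 members. Of the 22 mitotic genes, 20 were higher in H2O2 than in NCS and 0 lower, against 26.3% and 18% of all genes. The mitotic median difference was 0.49, while that of the 46 members was -0.11. The 34 other replication genes had a median difference of -0.002, with 13 lower and 6 higher in H2O2, against 18% and 26.3% of all genes. AURKA, the kinase gene of the spindle poles, was 1.07 higher in H2O2 and PLK1 0.94 higher. The difference between the lists was described by these counts and not tested.

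**Figure D5:**
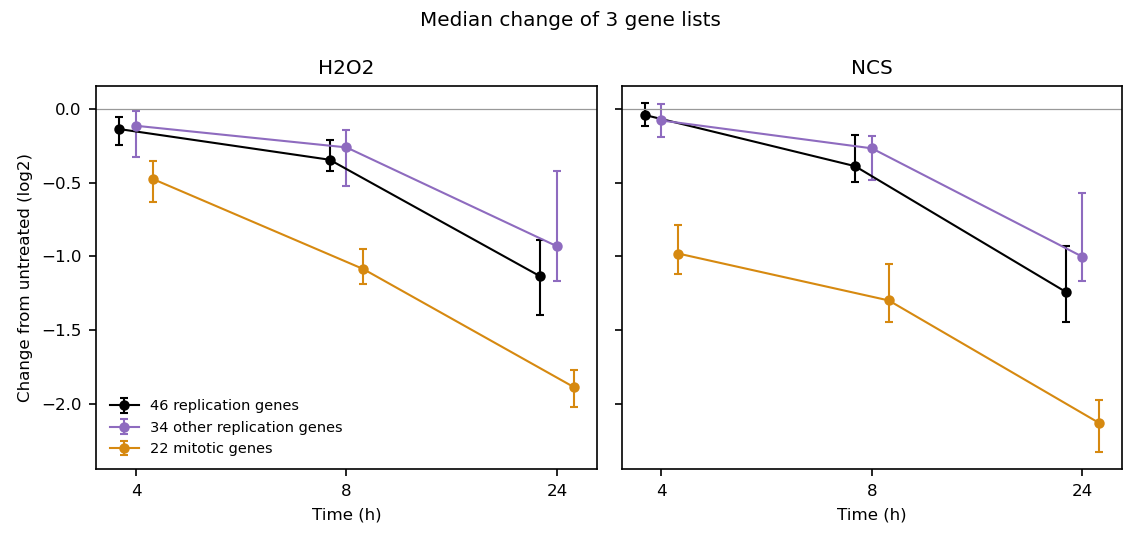
Median change from untreated cells (log2) of the 46 members, 34 other replication genes and 22 mitotic genes at 4, 8 and 24 h after H2O2 (left) and NCS (right), evenly spaced in time; bars span the first to the third quartile over genes. The mitotic genes lie lowest at each time, and at 4 h their median is -0.48 after H2O2 and -0.98 after NCS, while those of the members are -0.14 and -0.04.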

How the data were processed

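RNA-seq libraries of 7 groups, 3 biological replicates each, were analysed. Per the labels and the paper, the authors prepared stranded mRNA libraries, aligned paired-end reads with HISAT2 at default settings, counted them per gene with htseq-count in Galaxy and transformed the counts with DESeq2. The deposited table holds the resulting rLog values on a log2 scale. The submitters' processing notes name hg19; tool versions, annotation and strand setting of the counting are not given in the sources used here. The table holds no counts, so depth was unknown and no interval or floor based on it is given.

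No normalization was added. Of 23368 genes, 3674 had 0 throughout and were dropped. The other 19694 were tested with limma (version 3.58.1, R 4.3.3), fitting all 7 groups together and letting the prior variance follow the mean. There were 13 comparisons: 6 with untreated cells, 3 between H2O2 and NCS and 4 between times. P-values were adjusted by Benjamini-Hochberg over all genes tested and called under 0.05; larger changes were past an absolute log2 difference of 1. The study set these limits on fold changes from counts. Here they apply to rLog differences, which are smaller. With 3 libraries against 3, an exact permutation test cannot go below 0.1 and was not used. The limma fit was also run on simulated data for 19694 genes, with changes given to 200 in H2O2 at 24 h. It found 199 of the 200, and 5.69% of its calls were on genes given no change. The changes given were larger than any member's difference at 4 h or between the treatments. Detection of such smaller changes was therefore not tested.

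The members and all gene lists were chosen with earlier results of these data known. Members were named by rule: in each role those with the largest and smallest change at 24 h, members past 1, members above untreated cells, and the 5 largest differences between treatments at each time. From each other list at most 6 genes past 1 were named, and not every gene that met this limit. Promoter windows came from RefSeq (GRCh38.p14), and gene overlaps from GENCODE v29 (GRCh38), where 18 members share exonic bases with another gene and 6 share 10% or more. These builds differ from that of the files and served for annotation only. The p53 motif was added after the data had been seen. The alternatives tried were quantile normalization, alignment of library medians, no trend in the prior, genes with a mean of 5 or more, a limit of 0.58, fitting only the groups compared, the replicate number as a block, and omission of each library. Figures were drawn with matplotlib 3.10.9 in Python 3.11.15.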

Additional observations from a re-analysis of the deposited data

Results flagged for a closer look

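With 3 libraries a group, single libraries were not tested for standing apart. What stood out was the difference between the treatments, tested for each member as H2O2 minus NCS with limma and Benjamini-Hochberg adjustment. At 4 h, 22 members were lower and 3 higher in H2O2, against 18% and 26.3% of all genes. The largest differences were those of CLSPN (-0.45), POLD3 (-0.44), LIG1 (-0.40), CDC6 (-0.39) and POLE (-0.33). At 8 h, 9 members were lower and 16 higher in H2O2, against 15.4% and 18.7% of all genes. The share of members lower, 19.6%, was near that of all genes. At 8 h the largest differences were in ORC6 (0.47), MCM3 (0.38), POLA2 (-0.35), ORC1 (0.34) and ORC2 (-0.28). At 24 h, 2 members were lower and 10 higher, against 10.9% and 11% of all genes. The largest differences at 24 h were those of MCM6 (0.22), PRIM2 (-0.20), GMNN (0.19), GINS3 (0.19) and CLSPN (-0.18). The cause of these differences was not tested.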

How the results depend on the processing

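No called change of a member and no median was reversed under the alternatives run. The falls at 24 h stayed at 44 members after H2O2 and 45 after NCS whichever library was left out, and 31 to 32 and 31 to 33 members passed a fall of 1. At a limit of 0.58 instead of 1, 39 and 38 members were lower at 24 h, and 3 and 7 at 8 h.

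Quantile normalization moved the median to -1.10 in H2O2 and -1.18 in NCS at 24 h, -0.36 in NCS at 8 h, 0.036 between treatments at 24 h, -0.19 from 4 to 8 h in H2O2 and -0.79 from 8 to 24 h in NCS. Under it, 4 members were lower in NCS at 4 h, 4 were lower in H2O2 than in NCS at 24 h, and 1 rose from 4 to 8 h in H2O2. With library medians aligned, 4 were lower in H2O2 than in NCS at 24 h, and the median from 8 to 24 h in NCS was -0.81. In a fit of only the groups compared, 5 and 1 members were lower in H2O2 than in NCS at 8 and 24 h, and 0 rose from 4 to 8 h or from 8 to 24 h in H2O2. At a mean of at least 5, 1 member rose from 4 to 8 h in NCS. The causes were not tested.

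Leaving out 1 library gave 1 to 2 members higher in H2O2 at 4 h (1 without untreated replicate 3 or H2O2 4 h replicate 2). In NCS at 4 h it gave 3 to 6 lower (3 without NCS 4 h replicate 3, 4 without untreated replicate 3 or NCS 4 h replicate 2) and 3 to 7 higher (7 without untreated replicate 2). The median in NCS at 24 h ranged from -1.27 to -1.22. Between treatments, 5 to 13 members were lower at 8 h (5 without H2O2 8 h replicate 1) and 1 to 4 at 24 h (1 without H2O2 24 h replicate 3 or NCS 24 h replicate 3, 4 without NCS 24 h replicate 1), and the 24 h median lay between 0.040 and 0.095. Over time, 1 to 3 members rose from 4 to 8 h and 0 to 2 from 8 to 24 h in H2O2, and 0 to 1 from 4 to 8 h in NCS (1 without NCS 4 h replicate 3 or NCS 8 h replicate 1). The median from 8 to 24 h in NCS ranged from -0.86 to -0.80.

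The labels number the replicates 1 to 3 in every group. Between libraries with the same number, deviations from the group means had a mean correlation of 0.0274 (63 pairs, -0.149 to 0.213). With different numbers it was -0.0137 (126 pairs). Deviations sum to 0 within each group, so the second value largely follows from the first and is no separate comparison. Same-number correlations were all above 0 for H2O2 against NCS at 8 h (0.0381 to 0.192) and 24 h (0.0688 to 0.113). They were also above 0 for NCS at 24 h against untreated cells (0.0531 to 0.131) and against NCS at 8 h (0.0197 to 0.165). In the other comparisons they lay on both sides of 0. Whether libraries with the same number share more than that number was not tested. With the replicate block, 1 member rose from 4 to 8 h in NCS instead of 0. In the comparisons with untreated cells and between treatments, 7 further member calls passed the threshold and 0 were lost.

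Depth is unknown, and the shrinkage of rLog values understates the change of low genes.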
